A study of Mus musculus with 12 samples.

Results

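The p53 target genes Mdm2, Bbc3 and Pmaip1 and the Bcl2 family genes Bcl2, Bcl2l1, Bcl2l11 and Mcl1 were followed in tumor islets on both sides of the angiogenic switch, the step at which an islet lesion begins to recruit new vessels. They are the 7 measured genes of a list of 10 chosen by symbol, out of 19938 genes on the arrays. A gene was measured where the platform annotation paired a transcript cluster (a set of probes summarised to 1 value) with its symbol alone. Cdkn1a shares its only cluster with a second symbol, and Trp53 and Bax have no cluster with a single symbol in the annotation used here, so no value is given for these 3 genes. Each measured gene had exactly 1 cluster.

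The angiogenic and the non angiogenic islets came from Rip1Tag2 mice on a C57BL/6 background, 8 weeks old. In both groups the rat insulin promoter drives the SV40 T antigen in beta cells, so the transgene is common to all 12 pools and islets without it were not compared. Islets were freed with collagenase, purified on a density gradient and sorted into both groups by how they looked, and total RNA of pools of islets was hybridised to 12 Affymetrix arrays, 6 per group. The number of mice behind each pool is not given in the labels, nor whether different pools shared mice, and p-values cover only the variation from array to array.

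p53 is a transcription factor that answers DNA damage and oncogene activity by switching on genes for cell cycle arrest, repair and apoptosis. Mdm2 is both its target and the ubiquitin ligase that degrades it, while Bbc3 (PUMA) and Pmaip1 (NOXA) encode BH3-only proteins through which p53 can start apoptosis. BH3-only proteins block the prosurvival members of the Bcl2 family or activate the effectors Bax and Bak, which permeabilise mitochondria. The large T antigen binds p53 and holds it in an inactive complex, and it also binds the Rb protein. In this tumor model Bcl2l1 (Bcl-xL) is known as a survival gene of the beta cell lesions.

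To show the sequence through which p53 is known to act, promoter windows from RefSeq (build GRCm38.p6, 250 bases before to 50 bases after each transcript start) were searched for the p53 half-site, the published consensus of 10 letters, which reads the same on both strands and therefore covers both. A pair of adjacent half-sites was counted with up to 3 mismatches in all, provided both half-sites kept the C and the G of their core. Exact half-sites and pairs can overlap each other. The stretches shown are those of the members with a match and of Ccng1, a p53 target of unclear function in the cell cycle with the closest pair among the measured targets. They are written in the direction of the gene, with the match in capitals and 20 bases of flank on each side.
Bbc3, pair of half-sites, plus strand, chr7:16309466-16309525: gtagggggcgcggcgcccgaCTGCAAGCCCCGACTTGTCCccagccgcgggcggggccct
Ccng1, pair of half-sites, minus strand, chr11:40755442-40755501: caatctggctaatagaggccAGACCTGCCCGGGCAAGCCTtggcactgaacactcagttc
Mdm2, exact half-site, minus strand, chr10:117710915-117710964: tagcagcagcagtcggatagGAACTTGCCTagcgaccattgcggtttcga

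Relative to the start, the Bbc3 pair ran from position -97 to -78 with 3 mismatches, and the Ccng1 pair from -195 to -176 with 1 mismatch. The Mdm2 half-site ran from -186 to -177. The elements through which p53 is known to induce Mdm2 lie in its first intron and were not searched. Of all 32851 promoter windows, 8.36% held an exact half-site and 1.38% a pair. Of the 7 measured members, 6 had a window, which leaves out Pmaip1. Of 37 measured p53 target genes in a wider list, 29 had a window and 6 of these a pair, against 441 of 27025 genes over all windows. The 6 targets with a pair were Bbc3, Ccng1, Sesn1, Tigar, Aen and Trp73. Their log2 differences between angiogenic and non angiogenic islets ran from -0.12 for Sesn1 to 0.07 for Ccng1. None of the 6 passed the test described next, which called 3.55% of all genes higher and 0.948% lower. A match is a description of the letters only.

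Deposited values were log2 levels made by the authors with RMA, which corrects background, brings arrays to a common distribution and compresses weak signals. Groups were compared with limma (two-sided, Benjamini-Hochberg adjustment over all 19938 genes, called at an adjusted p under 0.05). None of the 7 members was called in either direction, while 3.55% of all genes were called higher and 0.948% lower in angiogenic islets. At an unadjusted p under 0.05 from limma, 0 of the 7 passed against 14.3% of all genes, and the methods' t-test gave 0 as well, before and after adjustment. The median log2 difference of the members was -0.03, beside -0.02 over all genes, and the range was -0.09 to 0.06. All 7 members overlapped between the groups, whereas the arrays did not overlap for 3.78% of all genes.

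The intervals bound these differences only for variation from array to array, with the 6 arrays of each group treated as independent. The 95% interval of the ratio between angiogenic and non angiogenic islets lay within 1.2-fold in both directions for 6 of the 7 members (85.7%) and for 68.5% of all genes. The exception was Mcl1. The median standard error of the members was 0.06 on the log2 scale, against 0.07 over all genes. As whole islets were measured, fewer cells of a type and less RNA per cell cannot be told apart.

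**Figure D1:**
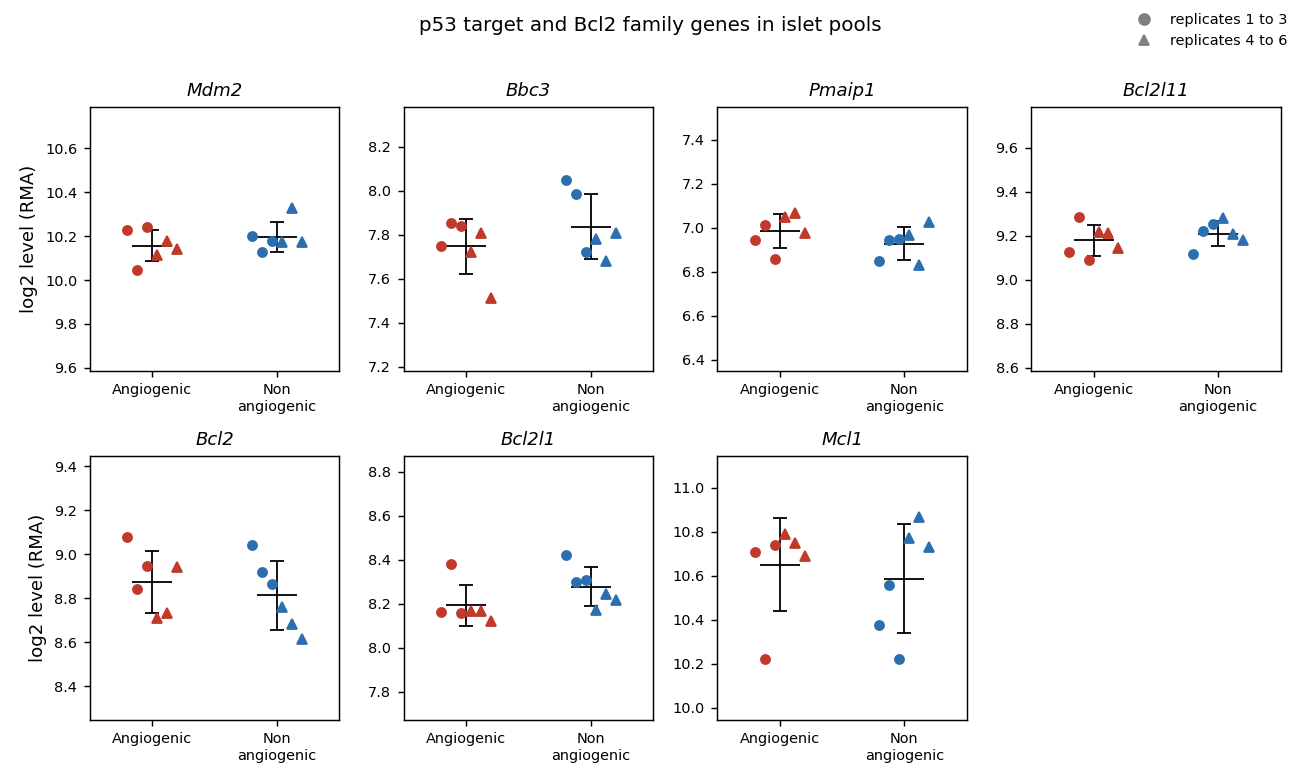
Log2 level (RMA) of the 7 measured members in angiogenic (red) and non angiogenic (blue) islets, 1 point per array, with circles for replicates 1 to 3, triangles for replicates 4 to 6, and the mean and SD of 6 arrays in black. Every panel spans the same 1.2 log2 units, and the groups overlap in all 7 panels.

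Among the p53 targets, Mdm2 had log2 levels with a lowest, median and highest value of 10.05, 10.16 and 10.24 in angiogenic islets. In non angiogenic islets these were 10.13, 10.18 and 10.33. The ranges overlapped, with non angiogenic replicate 5 above all other arrays. The mean was 10.16 ± 0.07 in angiogenic and 10.20 ± 0.07 in non angiogenic islets (SD, n = 6 each), a ratio of 0.972 with a 95% interval of 0.904 to 1.05 (adjusted p = 0.814 from limma).

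Bbc3, the gene of the BH3-only protein PUMA, spanned 7.51 to 7.85 with a median of 7.78 in angiogenic islets. In non angiogenic islets it spanned 7.68 to 8.05 with a median of 7.79. The 2 highest values, 8.05 and 7.98, belonged to non angiogenic replicates 1 and 2, and the lowest to angiogenic replicate 6, while the other arrays were mixed. The log2 difference was -0.09 with a standard error of 0.08 (adjusted p = 0.690 from limma), and the interval of the ratio was 0.841 to 1.05.

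Pmaip1, which encodes the BH3-only protein NOXA, spanned 6.86 to 7.07 with a median of 6.996 in angiogenic islets. It spanned 6.83 to 7.03 with a median of 6.95 in non angiogenic islets. Nearly the whole of both ranges was shared. The log2 difference was 0.06 with a standard error of 0.05 (adjusted p = 0.713 from limma), and the interval of the ratio was 0.965 to 1.12.

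Bcl2l11 encodes BIM, a BH3-only protein that is not primarily a p53 target and that binds all prosurvival members. Its log2 level was 9.09, 9.18 and 9.28 (lowest, median and highest) in angiogenic islets and 9.12, 9.21 and 9.28 in non angiogenic islets. It was the most even of the 7 genes between groups, at a difference of -0.03, a standard error of 0.05 and an interval of the ratio of 0.912 to 1.05 (adjusted p = 0.866 from limma).

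None of the 3 prosurvival members passed the test. Bcl2, the founding gene of the family, had log2 levels of 8.71, 8.89 and 9.08 (lowest, median and highest) in angiogenic islets. In non angiogenic islets these were 8.61, 8.81 and 9.04. The highest arrays of both groups were replicates 1, and the ranges were nearly the same. The difference was 0.06 with a standard error of 0.08, and the interval of the ratio was 0.926 to 1.18 (adjusted p = 0.831 from limma).

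Bcl2l1 had the lowest p of the members. In angiogenic islets 5 of 6 arrays lay between 8.12 and 8.17, and replicate 2 stood at 8.38. In non angiogenic islets the lowest, median and highest values were 8.17, 8.27 and 8.42. Apart from angiogenic replicate 2, the angiogenic arrays lay below all non angiogenic arrays. The log2 difference was -0.09 with a standard error of 0.06 (adjusted p = 0.577 from limma), and the interval of the ratio was 0.867 to 1.02. Without angiogenic replicate 2 the difference was -0.12 (adjusted p = 0.270 from limma). Values of the cluster do not separate the long, prosurvival and the short, proapoptotic transcripts of Bcl2l1.

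Mcl1, the gene of a short-lived prosurvival protein, had the widest spread. In angiogenic islets replicate 2 stood at 10.22 and the other 5 arrays between 10.69 and 10.79. In non angiogenic islets the replicates 1, 2 and 3 stood at 10.38, 10.56 and 10.22, and the replicates 4, 5 and 6 at 10.77, 10.87 and 10.73. The low values were thus spread over both groups and lay in replicates 1 to 3. The difference was 0.06 (standard error 0.12), and the interval of the ratio was 0.877 to 1.24 (adjusted p = 0.898 from limma). The direction of this small difference changed with single arrays: it was -0.0099 without non angiogenic replicate 3 and 0.15 without angiogenic replicate 2.

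Markers of acinar cells, the exocrine tissue around islets, varied widely between arrays, and the 2 arrays lowest in them were lowest in Mcl1. The mean log2 level of the 9 measured acinar markers was 11.65, 7.99 and 11.01 in angiogenic replicates 1 to 3. It was 9.89, 9.71 and 7.76 in non angiogenic replicates 1 to 3. In replicates 4 to 6 it lay between 10.54 and 11.54 in angiogenic and between 10.15 and 12.77 in non angiogenic islets. The 2 arrays with the fewest acinar transcripts, angiogenic replicate 2 and non angiogenic replicate 3, stood at an Mcl1 level of 10.22 each. Among replicates 4 to 6 the Mcl1 level did not follow the acinar mean, and angiogenic replicate 6, with the highest mean of its group in that set, had the lowest Mcl1 level there. The part of acinar tissue in the Mcl1 level was not tested. Angiogenic replicate 2 had in addition the highest Bcl2l1 level of its group. With the acinar mean as a covariate, the log2 difference of Mcl1 was 0.0034 (adjusted p = 0.992 from limma), and that of Bcl2l1 was -0.06 (adjusted p = 0.622). No acinar marker was called in either direction, and the largest log2 differences were 0.73 for Cpa1 and 0.67 for Cpb1 (adjusted p = 0.790 and 0.811). Without non angiogenic replicate 3 these were 0.16 and 0.14, and without angiogenic replicate 2 they were 1.35 and 1.27.

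The replicates fell into the sets 1 to 3 and 4 to 6, and more genes separated these sets than separated the islet groups. In a limma fit that also held the islet group, 36.9% of all genes passed for the set, and so did 2 of the 7 members. Bcl2 fell by 0.21 on the log2 scale in replicates 4 to 6 relative to replicates 1 to 3 (adjusted p = 0.0125 from limma), and Mcl1 was 0.30 higher (adjusted p = 0.0153). The study speaks of separate profiling experiments, but the labels name no batch and assign no array to an experiment. Each set holds 3 arrays of both groups, so the comparison of islets was repeated with the set as a block. That fit called 5.88% of all genes higher and 2.74% lower in angiogenic islets, and again none of the members, with the lowest adjusted p at 0.328 for Bcl2l1. All 7 intervals then lay within 1.2-fold.

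Within each set the differences between angiogenic and non angiogenic islets stayed small. For Bbc3 they were -0.10 in replicates 1 to 3 and -0.07 in replicates 4 to 6, and for Bcl2l1 -0.11 and -0.06. Pmaip1 gave 0.02 and 0.09, Bcl2 0.01 and 0.11, and Bcl2l11 -0.03 in both sets. Mdm2 gave 0.00085 and -0.08, and Mcl1 0.17 and -0.05, so the sign of these 2 genes was not the same in both sets. No member was called in replicates 1 to 3 alone, where limma called 2.70% of all genes, or in replicates 4 to 6 alone, where it called 3.85%. The difference of the effect between the sets was tested as an interaction. It was called for 0.00502% of all genes, that is 1 gene, and for none of the members. The largest among them was -0.22 for Mcl1 with a standard error of 0.17 (adjusted p = 0.827 from limma).

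**Figure D2:**
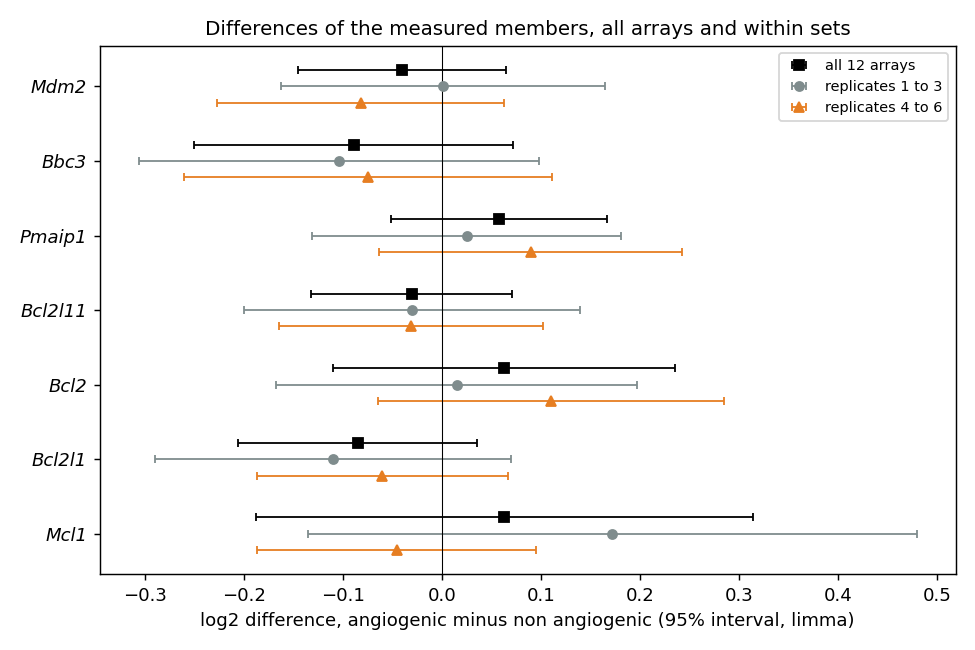
Log2 difference of angiogenic minus non angiogenic islets with its 95% interval from limma for each measured member, over all 12 arrays (black squares), replicates 1 to 3 (grey circles) and replicates 4 to 6 (orange triangles). All intervals include 0, and that of Mcl1 in replicates 1 to 3 is the widest.

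A wider list of p53 targets held 37 measured genes, of which 2 were called higher in angiogenic islets and none lower, beside 3.55% and 0.948% of all genes. The median log2 difference was 0.04, and 21 of the 37 differences were positive, against 7987 of 19938 over all genes. The lowest of the 37 was -0.24 for Btg2 (adjusted p = 0.294 from limma), named after its values were seen. Both called genes belong to the 15 measured genes of arrest and repair. Phlda3, a p53 target that restrains the kinase Akt and is known in humans as a suppressor of pancreatic neuroendocrine tumors, had log2 levels of 8.21, 8.28 and 8.46 (lowest, median and highest) in angiogenic islets. In non angiogenic islets these were 7.66, 7.88 and 8.00. The groups did not overlap, and the ratio was 1.37 (adjusted p = 0.000968 from limma), for a log2 difference of 0.45 and a standard error of 0.07.

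Plk2, which encodes a polo-like kinase induced by stress, had log2 levels of 9.51, 9.69 and 9.71 (lowest, median and highest) in angiogenic islets. These were 9.20, 9.29 and 9.43 in non angiogenic islets. Again the groups did not overlap, and the ratio was 1.28 (adjusted p = 0.000960 from limma). Both genes were also called within each set alone. Replicates 1 to 3 gave log2 differences of 0.32 for Phlda3 and 0.41 for Plk2, and replicates 4 to 6 gave 0.58 and 0.30. In the promoter windows of Phlda3 and Plk2 neither an exact half-site nor a pair was found. Of the 29 targets with a window, 9 held an exact half-site and 6 a pair. Sequence outside the windows was not searched.

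None of the 14 measured apoptotic targets was called. The death receptor gene Tnfrsf10b had the largest difference at 0.19 (adjusted p = 0.0820 from limma), followed by Steap3, which encodes an iron reductase, at 0.18 (adjusted p = 0.104). Of the 8 targets of feedback and metabolism none was called either, with the phospholipid transfer gene Pltp at 0.28 (adjusted p = 0.0632) and the epoxide hydrolase gene Ephx1 at 0.18 (adjusted p = 0.524). When the set was included as a block, the number of higher targets was 6 of 37, beside 5.88% of all genes. Beside Phlda3 and Plk2 these were Tnfrsf10b, Steap3, Pltp and Apaf1, the last named after its values were seen, with adjusted p = 0.0346, 0.0287, 0.0017 and 0.0116 from limma. Apaf1 encodes the scaffold of the apoptosome and had a log2 difference of 0.17. No target was lower with the set as a block, beside 2.74% of all genes.

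Of 14 measured regulators of p53, 1 was lower in angiogenic islets and none was higher, beside 0.948% lower over all genes. It was Mdm4, the partner of Mdm2 that inhibits p53 without degrading it. Its log2 level was 9.54, 9.72 and 9.81 (lowest, median and highest) in angiogenic islets and 9.87, 9.97 and 10.10 in non angiogenic islets. The groups did not overlap, and Mdm4 fell by 0.26 on the log2 scale with a standard error of 0.06 (adjusted p = 0.0171 from limma). Within replicates 1 to 3 and 4 to 6 the difference was -0.28 and -0.25, and neither set passed alone (adjusted p = 0.117 and 0.135 from limma). The second largest difference was 0.16 for the checkpoint kinase gene Chek2 (adjusted p = 0.678). The median of the 14 genes was -0.04.

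In the Bcl2 family 22 genes were measured, and 1 was called, lower in angiogenic islets, beside 3.55% of all genes higher and 0.948% lower. None of the 6 prosurvival genes passed, and their differences lay between -0.09 and 0.06, the extremes being Bcl2l1 and Mcl1. Of the effectors, the log2 difference of Bak1 was 0.18 and its standard error 0.06 (adjusted p = 0.134 from limma, and 0.0328 with the set as a block, where 5.88% of all genes were higher and 2.74% lower), and that of Bok was 0.08 (adjusted p = 0.527). The 8 BH3-only genes lay between -0.09 and 0.06, with 1 positive value, that of Pmaip1, and a median of -0.04. Over all genes 7987 of 19938 values were positive, and the median was -0.02. Bbc3 had the lowest value, followed by Hrk at -0.08 (adjusted p = 0.671), which encodes a BH3-only protein known from neurons.

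The called gene was Bnip3, an atypical member that acts in mitophagy and is known as a target of hypoxia. Its log2 level was 9.13, 9.38 and 9.49 (lowest, median and highest) in angiogenic islets, against 9.55, 9.69 and 9.99 in non angiogenic islets, without overlap. It fell by 0.36 on the log2 scale with a standard error of 0.08 (adjusted p = 0.0131 from limma). A second cluster of Bnip3 gave a difference of -0.17, and with the mean of both clusters the gene did not pass (adjusted p = 0.0610). Bcl2l13, an outer mitochondrial member, had a difference of 0.11 (adjusted p = 0.676).

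**Figure D3:**
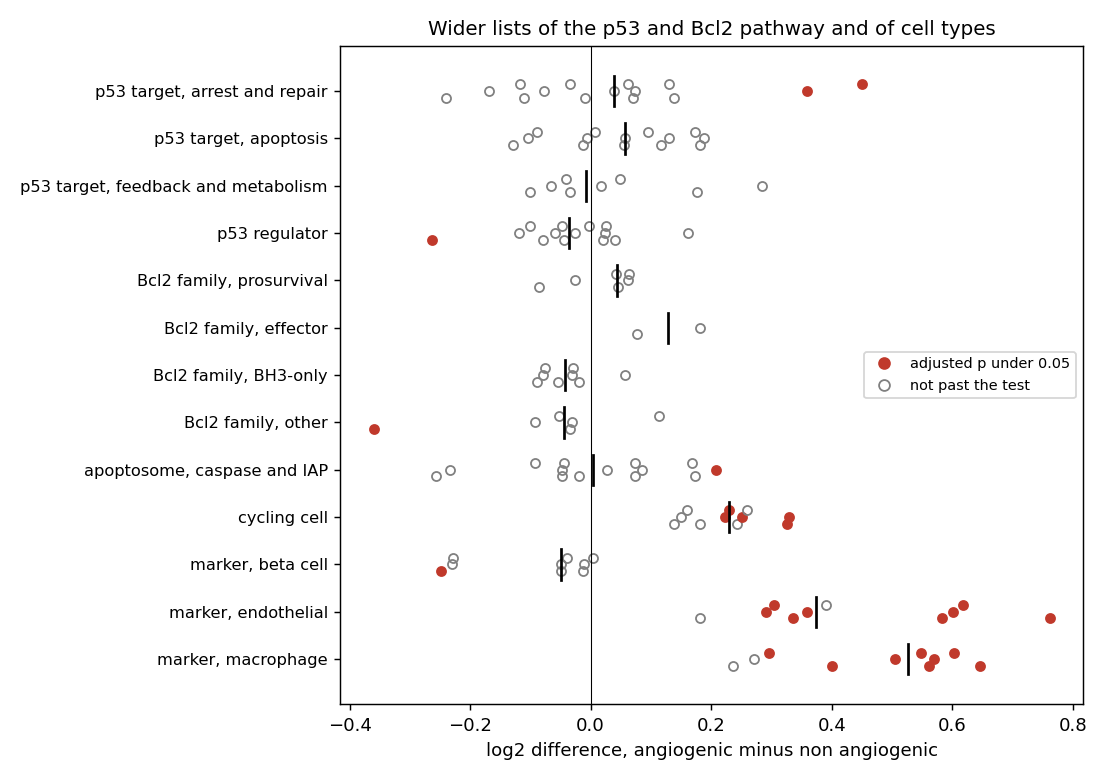
Log2 difference of angiogenic minus non angiogenic islets for each measured gene of the wider lists, 1 point per gene, filled in red where the adjusted p from limma was under 0.05, with the median of each list as a black bar. The medians of the p53 and Bcl2 lists run from -0.04 to 0.13, beside -0.02 over all genes. Both measured effectors, Bak1 and Bok, lie above 0, and most BH3-only and other Bcl2 genes below it. Over all genes 7987 of 19938 differences are positive. The cycling cell, endothelial and macrophage lists lie above 0, and most beta cell genes below it.

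Downstream of mitochondria, 14 measured genes of the apoptosome, caspases and inhibitors of apoptosis gave 1 higher and no lower gene, beside 3.55% and 0.948% of all genes, with a median of 0.0040. The called gene was Birc5 (survivin), an inhibitor of apoptosis that also serves in mitosis and is made mainly by dividing cells. Its log2 level was 8.70, 8.81 and 8.93 (lowest, median and highest) in angiogenic islets and 8.53, 8.60 and 8.69 in non angiogenic islets. The groups did not overlap, by a narrow margin, and the ratio was 1.15 (adjusted p = 0.0245 from limma). The call was lost when angiogenic replicate 2, 3, 5 or 6 or non angiogenic replicate 2 or 6 was left out, where the adjusted p from limma reached 0.0605. Of 11 measured genes of cycling cells 5 were higher, beside 3.55% of all genes, with a median of 0.23, and none was lower. The 5 were Plk1, Aurka, Mki67, Ccna2 and Aurkb, at ratios of 1.17 to 1.26. The number of higher cycling genes was 8 with the set as a block, beside 5.88% of all genes. It was 0 in replicates 1 to 3 alone, beside 473 of all genes, and 2 in replicates 4 to 6 alone, beside 621. It was 3 without angiogenic replicate 4 or 5 or non angiogenic replicate 2, beside 553, 573 and 607 of all genes. Without angiogenic replicate 6 it was 2, beside 583 of all genes. Birc3 and Birc2, other inhibitors of apoptosis, had differences of -0.26 and -0.23 (adjusted p = 0.614 and 0.115 from limma, and 0.336 and 0.0193 with the set as a block).

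**Figure D4:**
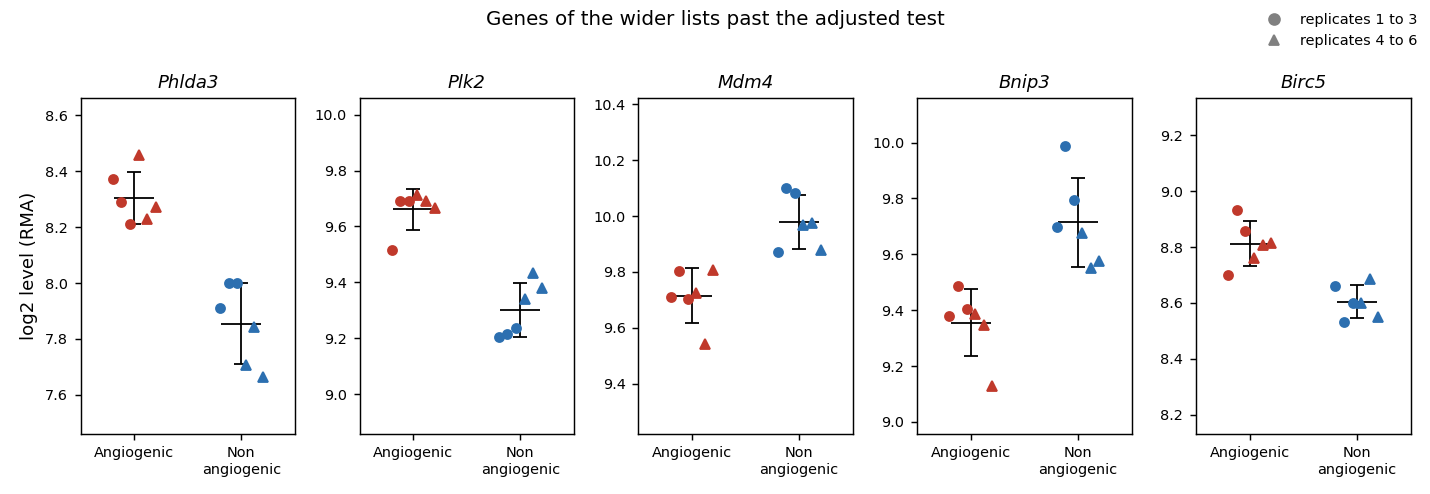
Log2 level (RMA) of the 5 genes of the wider lists that passed the test, in angiogenic (red) and non angiogenic (blue) islets, 1 point per array, with circles for replicates 1 to 3, triangles for replicates 4 to 6, and the mean and SD of 6 arrays in black. Phlda3, Plk2 and Birc5 lie higher and Mdm4 and Bnip3 lower in angiogenic islets, without overlap between the arrays of the groups.

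Most markers of vessel, stromal and myeloid cells were called higher in angiogenic islets. Over all genes 3.55% were called higher and 0.948% lower, and the marker counts stand beside these shares. Endothelial markers were higher in 8 of 10, led by Cdh5, Tek, Cldn5, Pecam1, Tie1 and Egfl7 (ratios of 1.26 to 1.70), with a mean level per array of 9.49 to 9.65 in angiogenic and 9.05 to 9.21 in non angiogenic islets. Pericyte and fibroblast markers were higher in 9 of 10, led by Acta2, Postn, Col1a1, Col1a2, Lum and Pdgfrb (ratios of 2.11 to 3.34), with means of 9.84 to 10.23 in angiogenic and 8.56 to 8.996 in non angiogenic islets. Macrophage markers were higher in 8 of 10, led by Adgre1, Mrc1, Fcer1g, Csf1r, Tyrobp and C1qb (ratios of 1.42 to 1.57), with means of 8.84 to 9.26 in angiogenic and 8.40 to 8.67 in non angiogenic islets. Of 9 measured beta cell markers Ucn3 was lower at a ratio of 0.842 (adjusted p = 0.0285 from limma) and none was higher, with means of 11.71 to 11.87 in angiogenic and 11.76 to 12.03 in non angiogenic islets. The Ucn3 call was lost when angiogenic replicate 1, 2, 5 or 6 or non angiogenic replicate 4, 5 or 6 was left out (adjusted p up to 0.0677 from limma). Nkx6-1 had a log2 difference of -0.23 (adjusted p = 0.0566 from limma). With the set as a block 3 beta cell markers were lower, beside 2.74% of all genes. They were Ucn3, Nkx6-1 (adjusted p = 0.0179 from limma) and the glucose transporter gene Slc2a2 (adjusted p = 0.0407), the last named after its values were seen. The hormone gene Ins2 averaged 13.21 in angiogenic and 13.22 in non angiogenic islets. None of the 8 measured lymphocyte markers passed, with means of 6.28 to 6.37 in angiogenic and 6.29 to 7.27 in non angiogenic islets, and the B cell genes Cd79a and Ms4a1 had the largest differences at -0.65 and -0.48 (adjusted p = 0.0648 and 0.628 from limma). The groups did not overlap for Cd79a, as for 3.78% of all genes. Cd79a was lower with the set as a block (adjusted p = 0.0342 from limma) and without non angiogenic replicate 4 (adjusted p = 0.0054 from limma). Without that array the log2 difference of Ms4a1 was -0.07. Both genes had weak signals, with mean levels at percentiles 21.9 (Cd79a) and 10.5 (Ms4a1) of all genes. The part of these cells in the levels of Phlda3, Plk2, Mdm4, Bnip3 and Birc5 was not tested.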

How the data were processed

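Each of the 12 samples is labelled as a pool of islets and was measured on 1 array. The authors deposited RMA values, which are log2 levels of transcript clusters, and the submitters' notes name Affymetrix Expression Console. Tool versions, the genome build and whether all arrays were processed jointly were not given in the sources used here. Array medians lay between 7.30 and 7.38, and the number of arrays limits the precision. Of 35556 clusters, 21789 had 1 gene symbol, 1621 several and 12146 none in the annotation used here. The brightest cluster was kept for the 999 genes with more than 1, which left 19938 genes. Groups and replicate numbers came from the sample labels.

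The test was limma 3.58.1 in R 4.3.3 (lmFit and eBayes on 6 against 6 arrays, two-sided, no covariates), with Benjamini-Hochberg adjustment across all genes and a threshold of 0.05. The code was tested on simulated data. Members, lists and sets of replicates were chosen with earlier results of these data known. Lists are described by counts and medians without a test. Named are the members and, in every other list, the called genes, up to 6 by size of difference, or the 2 largest differences where fewer than 2 passed. Btg2, Perp, Ccng1, Sesn1, Tigar, Aen, Trp73, Apaf1, Birc2, Slc2a2 and Ins2 were named after their values were seen. Alternatives were the methods' t-test, limma with array weights or a trend, quantile normalization, median centring, the dimmest 25% of genes left out, the mean of all clusters, blocks for replicate number or set, each set alone, an acinar covariate and each array left out.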

Additional observations from a re-analysis of the deposited data

Results flagged for a closer look

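Single arrays stood apart from the other 5 of their group for 3 members. The gap to the nearest array took up 0.827 of the group's range for Mcl1 in angiogenic replicate 2, which stood at 10.22 with the nearest array at 10.69. For Bcl2l1 in the same array the level was 8.38 with the nearest at 8.17, a share of 0.816. For Mdm2 in non angiogenic replicate 5 it was 10.33 with the nearest at 10.20, a share of 0.635. All 3 shares were above Dixon's critical value for 6 samples, which chance passes in about 1 of 20 groups, and 14 groups were looked at. The interaction test between the sets of replicates called no member, and it called 1 of all 19938 genes. With 3 arrays per group and set, its standard errors for the members ran from 0.09 to 0.17. It could therefore not exclude differences of the size of the members' effects.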

How the results depend on the processing

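No member was called under any of the 25 alternatives, where the lowest adjusted p was 0.270, and 172 of 175 member values kept their sign. The sign turned for Mdm2 in replicates 1 to 3 alone (0.00085) and for Mcl1 in replicates 4 to 6 alone (-0.046) and without non angiogenic replicate 3 (-0.0099). When 1 array was left out, Mcl1 ran from -0.0099 to 0.15, Mdm2 from -0.06 to -0.01, Bbc3 from -0.12 to -0.04, Pmaip1 from 0.04 to 0.08, Bcl2 from 0.02 to 0.11, Bcl2l1 from -0.12 to -0.06 and Bcl2l11 from -0.05 to -0.01, and among other genes Birc3 from -0.35 to -0.13 and Chek2 from 0.09 to 0.22. The acinar genes Cpa1 and Cpb1 turned to -0.10 and -0.10 in replicates 4 to 6 alone.

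By the methods' t-test without adjustment, 7 p53 targets were higher and 2 lower, 1 Bcl2 family gene higher and 2 lower, 2 genes of the apoptosome and caspase list higher and 1 lower, and 1529 of all genes higher and 1385 lower. With the set as a block 6 p53 targets, 1 Bcl2 gene and 2 apoptosome genes were higher and 1 apoptosome gene lower, with 1172 of all genes higher and 547 lower. Deviations from the group mean correlated above 0.1 in 5 of 6 pairs of arrays with the same replicate number (correlations of 0.03 to 0.54). With the set means removed this held for 2 of 6 pairs (correlations of -0.34 to 0.12). Only 2 of 6 angiogenic arrays correlated best with their own number, so the numbers are not taken to pair the samples. With the replicate block 4 p53 targets, 1 Bcl2 gene and 2 apoptosome genes were higher, with 1058 of all genes, and 1 apoptosome gene and 449 of all genes were lower, while no member was called. With the acinar covariate 5 targets and 2 apoptosome genes were higher, with 752 of all genes higher and 224 lower.

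Calls were lost for the apoptosome list with median centring (0 higher) and for the Bcl2 family with the mean of all clusters (0 lower). In replicates 1 to 3 alone 1 p53 target was lower, 0 regulators were lower, 0 apoptosome genes were higher and 66 of all genes were lower. The target was Perp, at a log2 difference of -0.30 (adjusted p = 0.0366 from limma), against 0.04 in replicates 4 to 6. In replicates 4 to 6 alone 0 regulators and 0 Bcl2 genes were lower and 0 apoptosome genes higher. Without 1 array, 553 to 715 of all genes were higher and 110 to 178 lower, the 110 without angiogenic replicate 6, and 0 to 1 apoptosome genes were higher, the gene being Birc5. Neither the cause of these changes nor of the signs that turned was tested.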
